A study of Homo sapiens with 9 samples.

Results

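The genes described here are those that changed in the same direction under both ligands built on the HBC fluorophore. HBC530 binds the Pepper RNA aptamer without a covalent bond, and MsOc3HBC is the same fluorophore with a short mesylated alkyl handle that can react with a guanine. HEK293T, an established human embryonic kidney line, was incubated for 5 h with 10 µM HBC530, 10 µM MsOc3HBC or the vehicle DMSO, and 3 biological replicates of each were sequenced after selection of poly(A) RNA. The labels name no aptamer plasmid, genotype or other agent for any of the 3 groups, which shared the line and the culture medium. The 6 ligand libraries were set against the 3 DMSO libraries. A gene was called shared when its mean raw count over the 9 libraries was over 10, both ligand means lay on the same side of the DMSO mean, and none of the 6 ligand libraries overlapped the 3 DMSO libraries in counts divided by size factors (normalized counts). This held for 838 of 17270 genes (4.85%), 401 higher (2.32%) and 437 lower (2.53%) with both ligands. The non-overlap with DMSO is what chose these genes, so it is given as a description and not as a result.

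Several of the pathways that these genes belong to act as nutrient and stress sensors. In the integrated stress response, kinases that sense amino acid shortage, endoplasmic reticulum stress or other insults phosphorylate the translation factor eIF2, which slows general translation and favours translation of the transcription factor ATF4. ATF4 and its partners switch on genes of amino acid supply, glutathione turnover and cell fate. Under low oxygen, hypoxia-inducible factors raise glucose uptake and glycolysis, and when cell sterols run low the SREBP factors raise sterol synthesis. The MondoA factor raises TXNIP and ARRDC4 when glucose phosphates accumulate, and the aryl hydrocarbon receptor, which binds flat aromatic molecules, raises the cytochrome P450 enzymes of the CYP1 family.

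The libraries held 28056929 to 62205366 counts. Replicate 3 of HBC530 and replicate 3 of MsOc3HBC held the fewest and stood apart from the other 7 libraries on the first principal component of log2 CPM (35.6 and 44.7 against -18.6 to -4.71, with 40.2% of the variance). Counts over gene lists are therefore also given without both, where 1544 of 17529 genes (8.81%) met the rule in place of 4.85%. All 10 transcripts on a list expected in HEK293T, among them PAX2, LHX1 and the neurofilament gene NEFM, passed the filter on low counts. Their summed normalized counts were 53130 to 54409 with DMSO, 55332 to 66957 with HBC530 and 54624 to 64975 with MsOc3HBC, so that every ligand library lay above every DMSO library, and the part of this in the results was not tested. Of 10 markers of other cell types only COL1A1 and GFAP did, and INS and KRT5 were at 0 in every library. The summed normalized counts of those 10 markers were 1151 to 1589 with DMSO, 1198 to 1693 with HBC530 and 956 to 1344 with MsOc3HBC.

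Most shared changes were small. The median log2 fold change of the mean of both ligands against DMSO was 0.34 in the 401 higher genes (range 0.06 to 2.07) and -0.26 in the 437 lower genes (-1.61 to -0.05), where the median of all 17270 genes was 0.0037. A log2 fold change beyond 1 was seen in 17 of the higher and 4 of the lower genes, and one beyond 0.5 in 99 and 66. Among all genes tested 31 (0.18%) and 519 (3.01%) lay beyond these limits. The gap between the nearest ligand and DMSO libraries was widest for CHAC1 (166%) among the higher and PPP1R3G (80.3%) among the lower genes, with medians of 4.16 and 3.06%. At the limits of the rule, AGFG2 was just inside with a gap of 0.029% and NKIRAS1 just outside with an overlap of 0.0061% among the higher genes. NTMT2 (0.015%) and BUB1 (0.029%) were the same for the lower genes. NASPP1 with a mean raw count of 10.1 was the lowest that passed the filter, and a further 261 genes met every other condition with a mean of 10 or less. All 401 and 437 genes passed the filter on low counts, because the rule asks for it.

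In the fit across all genes, 14 had an adjusted p under 0.05 for both ligands together against DMSO (0.0811% of 17270, the quasi-likelihood test of edgeR, adjusted after Benjamini and Hochberg), and all 14 were shared genes. CHAC1, RHOB, ATF3, JDP2, SLC7A11 and SESN2 rose (0.0347%), and BHLHE40, SPRY1, PPP1R3G, CA8, NOG, TXNIP, SLC2A1 and CXCR4 fell (0.0463%). An unadjusted p under 0.05 was reached by 1216 genes (7.04%), and DESeq2's Wald test called 100 (0.579%), 91 of them shared genes. From here on a gene is said to pass when its adjusted p for both ligands together was under 0.05, unless 1 ligand is named. In bulk RNA, fewer cells with a transcript and less of it per cell cannot be told apart. CHAC1, RHOB, ATF3, JDP2, BHLHE40, SPRY1 and PPP1R3G kept an adjusted p under 0.05 in each of 9 fits that left out 1 library. The other 7 lost it without any 1 of the DMSO libraries, so that 7 genes were called in each of these 3 fits. Without HBC530 replicate 1 the number was 9, and without HBC530 replicate 3 it was 23. The plot of the 14 genes by library shows how the ligand libraries lay in each.

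**Figure D1:**
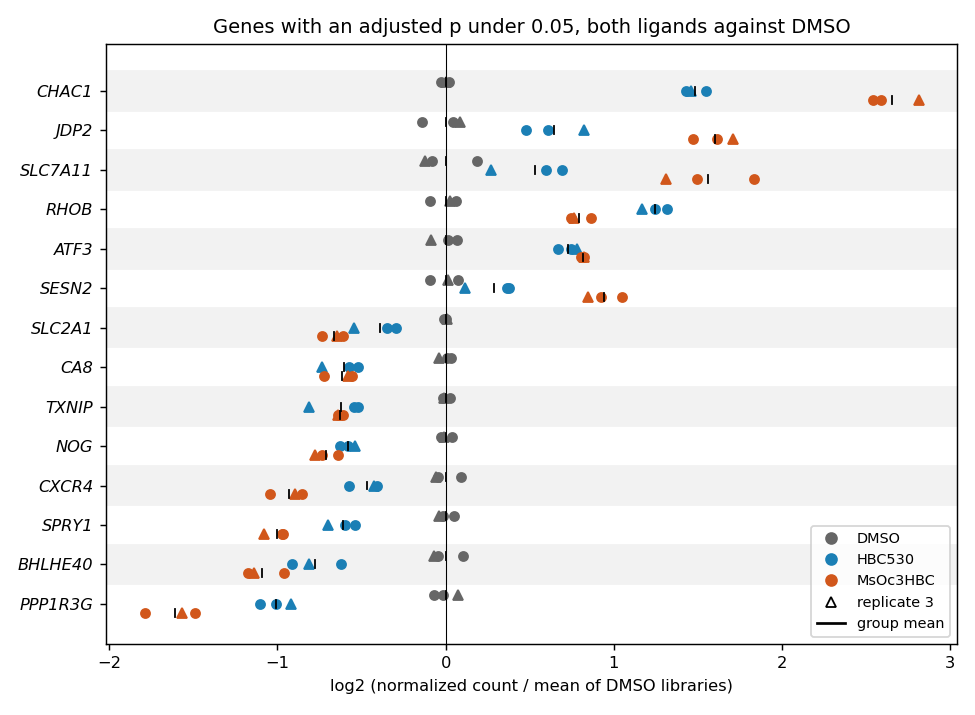
The 14 genes with an adjusted p under 0.05 for both ligands against DMSO, with the log2 ratio of each library's normalized count to the mean of the 3 DMSO libraries on the x axis. Points are libraries (triangles for replicate 3) and vertical bars are group means. In CHAC1, JDP2, SLC7A11 and SESN2 the 3 MsOc3HBC libraries lie beyond the 3 HBC530 libraries, in RHOB the order is the opposite, and in ATF3, CA8 and TXNIP both ligands reach about the same level.

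The integrated stress response gave the largest share of higher genes among 20 lists of pathways. Of its 19 measured members 12 were shared and higher (63.2%, where 2.32% of all genes were) and 0 were shared and lower, with a median log2 fold change of 0.50. That median was 0.28 with HBC530 and 0.66 with MsOc3HBC, and MsOc3HBC lay above HBC530 in 17 of the 19. CHAC1, ATF3, JDP2 and SESN2 rose past an adjusted p of 0.05 for both ligands together. For HBC530 alone JDP2 and SESN2 did not pass (log2 fold changes of 0.64 and 0.30). The counts were 12 or 13 in each of the 9 rankings without 1 library and 13 without replicate 3 of both ligands. Leaving libraries out can only add members apart from shifts in scaling and in the filter, so these counts are no check on the list. Over all genes 991 to 1760 were shared without 1 library. The count was 10 with scaling by total counts or with trends of GC content and exonic length removed. All 20 lists were chosen with results of these samples known, so the shares and directions given for them are no independent evidence. List counts without replicate 3 of both ligands stand beside 8.81% of all genes shared in either direction.

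ATF4 and its partners bind the C/EBP-ATF response element (CARE), searched here as TGATGNAAN on both strands of RefSeq promoters (GRCh38.p14, 250 bases before to 50 after the start of transcription). It stood in the promoters of CHAC1, ATF3 and ASNS, 3 of the 11 shared genes of the list that have an entry (27.3%). The share was 1.61% of the 11846 tested genes that have an entry and 3.67% of all 27305 genes in that table. The difference between these shares was not tested, and the list was itself chosen as genes of the ATF4 response. A match is a description of these letters, not evidence of binding. The stretches that hold it are shown 5′ to 3′ on the strand of the gene with the match in capitals. These 3 genes were picked because they carry the letters and not for their values, and ASNS did not pass the test.
CHAC1 (chr15:40953235-40953294, plus strand; the match is on the opposite strand, 210 to 202 bases before the start): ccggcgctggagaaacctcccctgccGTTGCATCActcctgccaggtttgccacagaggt
ATF3 (chr1:212565190-212565249, plus strand, 191 to 183 bases before the start): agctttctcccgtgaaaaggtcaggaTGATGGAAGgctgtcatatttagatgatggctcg
ASNS (chr7:97872443-97872502, minus strand, 68 to 60 bases before the start): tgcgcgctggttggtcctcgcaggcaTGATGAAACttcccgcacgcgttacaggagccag

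CHAC1 (chromosome 15, 40952962 to 40956519), which encodes a glutathione-degrading enzyme, had normalized counts of 108, 112 and 110.3 in DMSO replicates 1 to 3. With HBC530 it had 322, 297 and 303, and with MsOc3HBC 639.7, 661 and 773. The groups did not overlap, and all 3 MsOc3HBC libraries lay above all 3 HBC530 libraries. Its log2 fold change for both ligands together was 2.07 (adjusted p = 4.57e-06, SE 0.103) by the quasi-likelihood test of edgeR, adjusted after Benjamini and Hochberg. That of each ligand alone was 1.49 for HBC530 and 2.65 for MsOc3HBC.

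ATF3 (chromosome 1, 212565334 to 212620777), a stress-induced bZIP repressor and activator, had 1727, 1669 and 1554 normalized counts with DMSO. With HBC530 it had 2761, 2619 and 2834, and with MsOc3HBC 2889, 2924 and 2917. The ligand libraries were close to each other and all above DMSO, with a log2 fold change of 0.78 (adjusted p = 0.000736, SE 0.0717). JDP2, a bZIP factor that pairs with JUN and ATF3, had 177, 156 and 182 with DMSO, 261, 238 and 303 with HBC530 and 475, 524 and 559.9 with MsOc3HBC. Its 3 groups were fully separate, with a log2 fold change of 1.12 (adjusted p = 0.00142, SE 0.114). JDP2 overlaps the antisense gene JDP2-AS1, whose mean raw count was 11.2 against 311.

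SESN2, a sestrin that restrains mTORC1 when leucine is short, had 2774, 3106 and 2990.3 normalized counts with DMSO. It had 3804, 3834 and 3204 with HBC530, where replicate 3 was barely above the highest DMSO library, and 5617, 6128 and 5325 with MsOc3HBC. Its log2 fold change was 0.62 (adjusted p = 0.0153, SE 0.0843). ULBP1, a stress ligand of the NKG2D receptor, had 41.1, 35.9 and 24.8, 51.6, 52.99 and 42.05 and 104, 126 and 76.8 in the same order of groups. Its log2 fold change of 1.10 (adjusted p = 0.123, SE 0.208) did not pass for both ligands together.

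The remaining shared members of the list did not pass for both ligands together. They were NUPR1 (log2 fold change 1.30), DDIT3 (0.63), ASNS (0.59), ATF4 (0.50), CEBPB (0.38), CEBPG (0.34) and PPP1R15A (0.29). CEBPG, a C/EBP partner of ATF4, passed for MsOc3HBC alone (0.52 (adjusted p = 0.03699, SE 0.0828)), as ULBP1 did (1.64 (adjusted p = 0.01499, SE 0.227)). ATF4 itself had 28318, 30971 and 32048 normalized counts with DMSO, 36783, 35984 and 44541 with HBC530 and 44281, 43216 and 53211 with MsOc3HBC. ASNS, which makes asparagine, had 7922, 7770.4 and 8608, 9902, 10268 and 13645 and 11620.1, 10709 and 16641. NUPR1, a small stress-induced chromatin protein, had 34.9, 51.6 and 54.8, 68.5, 70.9 and 153 and 124, 108 and 218, with replicate 3 of each ligand the highest of its group. DDIT3, which encodes the death-promoting factor CHOP, overlaps MARS1, and MARS1 had a mean raw count of 18648 against 192 for DDIT3, so part of its counts can come from MARS1. The members that overlapped DMSO in at least 1 library were GDF15 (0.52), CTH (0.44), STC2 (0.31), VLDLR (0.20), TRIB3 (0.08), ATF5 (-0.03) and DDIT4 (-0.05). Of these, CTH and STC2 passed for MsOc3HBC alone (0.66 and 0.64), and with HBC530 they differed by 0.21 and -0.03.

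Amino acid supply, an output of ATF4, gave fewer shared genes. Of 17 genes for amino acid transport and synthesis, 4 were shared and higher (23.5%, against 2.32% of all genes) and 0 shared and lower. The median log2 fold change was 0.20. SLC7A11 (chromosome 4, 138164097 to 138242349), the cystine importer that supplies cysteine for glutathione and is also on the NRF2 list, had 491, 408 and 397 normalized counts with DMSO, 698, 652 and 521 with HBC530 and 1219, 1537 and 1069 with MsOc3HBC. The 3 groups did not overlap, and the log2 fold change was 1.06 (adjusted p = 0.011000, SE 0.136). PSAT1, an enzyme of serine synthesis, had 15154, 13787 and 14258, 15727, 15976 and 16382 and 18043, 19085 and 22984, with 0.32 (adjusted p = 0.393, SE 0.0868). SLC3A2, the heavy chain shared by several amino acid exchangers, and SHMT2, the mitochondrial serine hydroxymethyltransferase, differed by 0.17 and 0.15 on the log2 scale and did not pass. The list is sensitive to the rule, with 3 higher and 1 lower under upper-quartile scaling and 8 higher with GC and length trends removed. It had 7 higher without replicate 3 of both ligands, and 7 higher and 1 lower without DMSO replicate 3.

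Of 20 cytosolic aminoacyl-tRNA synthetases, the enzymes that charge transfer RNAs, 4 were shared and higher (20%, against 2.32% of all genes). Among them 0 were shared and lower, and the list median was 0.04. The count was 7 higher and 3 lower without replicate 3 of both ligands, 6 higher without HBC530 replicate 3 and 7 higher with GC and length trends removed, and the median was 0.07 without HBC530 replicate 3. CARS1 had 4034, 4045 and 4055 normalized counts with DMSO, 4475, 4334 and 4989.8 with HBC530 and 5106, 5028 and 5645 with MsOc3HBC (log2 fold change 0.29). GARS1 (0.23), SARS1 (0.18) and YARS1 (0.17) were smaller differences, and none of the 4 passed the test. YARS1 overlaps S100PBP and GARS1 overlaps GARS1-DT, with mean raw counts of 1589 and 273.

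In the unfolded protein response 2 of 15 genes were shared and higher (13.3%, against 2.32% of all genes), HERPUD1 and XBP1. The endoplasmic reticulum chaperones HSPA5 (0.04) and HSP90B1 (0.09) overlapped DMSO. HERPUD1, a membrane protein of protein degradation at the endoplasmic reticulum, had 1644, 1557 and 1591 normalized counts with DMSO, 1914, 1837 and 1853 with HBC530 and 2244, 2376 and 2753 with MsOc3HBC. Its log2 fold change was 0.43 (adjusted p = 0.123, SE 0.0804), and HERPUD1 passed for MsOc3HBC alone (0.63 (adjusted p = 0.0214, SE 0.0916)). XBP1, the transcription factor spliced by IRE1, had 6204, 6358 and 6667, 7434, 7456 and 7663 and 7462, 7638 and 9154, with 0.29 (adjusted p = 0.4201, SE 0.0812). Replicate 3 of MsOc3HBC was the highest library of XBP1. Without replicate 3 of both ligands the count of the list was 2 again, where 8.81% of all genes were shared in either direction.

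RHOB, a small GTPase of endosomes and the actin skeleton, had the highest level per exonic length of the 6 genes that rose, with 3002 normalized counts per kilobase with DMSO. RHOB (chromosome 2, 20447074 to 20449445) had 6680.5, 7437 and 7248 normalized counts with DMSO, 16871, 17744 and 15979 with HBC530 and 11964, 12973 and 12066 with MsOc3HBC. All HBC530 libraries lay above all MsOc3HBC libraries, and those above DMSO, with a log2 fold change of 1.03 (adjusted p = 0.000154, SE 0.0747).

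Among 20 immediate early genes, 3 were shared and higher and 1 lower (20% in all, against 4.85% of all genes), with a median of -0.08. The counts were 3 and 1 again without replicate 3 of both ligands, and the median was -0.01 without DMSO replicate 2 and -0.03 without DMSO replicate 3. Taken by ligand, the list median was 0.06 with HBC530 and -0.23 with MsOc3HBC, so the ligands had opposite signs. MsOc3HBC lay above HBC530 in 3 of the 20 genes. JUN, a subunit of AP-1, had 17287, 17245 and 16627 normalized counts with DMSO, 25463, 27466 and 24592 with HBC530 and 24189, 26182 and 20144 with MsOc3HBC, a log2 fold change of 0.54 (adjusted p = 0.0669, SE 0.0891). JUND (0.45) and FOSL1 (0.42), 2 more AP-1 subunits, were higher in every ligand library, and DUSP4 (-0.31), a phosphatase of MAP kinases, was lower. FOS (-0.42) and EGR1 (-0.28) overlapped DMSO.

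Of 14 Kruppel-like factors 3 were shared and higher (21.4%, against 2.32% of all genes), although the median of the list was -0.14. That median was -0.07 without HBC530 replicate 3 and -0.05 without replicate 3 of both ligands, where 4 members were shared and higher. KLF2, known for its part in endothelial quiescence, had 62.6, 119 and 117 normalized counts with DMSO, where replicate 1 was the lowest. It had 247, 287 and 279 with HBC530 and 169, 172 and 201 with MsOc3HBC, and a log2 fold change of 1.13 (adjusted p = 0.0508, SE 0.179). KLF2 passed for HBC530 alone (1.43 (adjusted p = 0.0474, SE 0.198)) and not for MsOc3HBC alone (0.84 (adjusted p = 0.193, SE 0.204)). KLF6 had 1894, 1786 and 1756, 2308, 2525 and 2744 and 2326, 2439.6 and 2674, with 0.47 (adjusted p = 0.0952, SE 0.0831). KLF15 differed by 0.37 and did not pass. Of 12 early targets of TGF-beta and BMP signals, CCN2 (0.66) and CCN1 (0.33) were shared and higher (16.7%, against 2.32% of all genes). CCN2 and CCN1 encode matricellular proteins and are also targets of YAP, and the list median was -0.09. The count was 2 higher and 3 lower without replicate 3 of both ligands, and the median was -0.02 without DMSO replicate 1. CCN2 had 252, 228 and 189.9 normalized counts with DMSO, 366, 410.1 and 378 with HBC530 and 303, 311 and 349 with MsOc3HBC.

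Among the lower genes, hypoxia and glycolysis gave the largest share of shared members. Of 23 measured members 14 were shared and lower (60.9%, where 2.53% of all genes were) and 0 shared and higher. The median log2 fold change was -0.31. This list too was chosen with results of these samples known, so its share and direction are no independent evidence. SLC2A1 was the 1 member that passed for both ligands together, and SLC2A1, EGLN3 and no other member passed for MsOc3HBC alone. The count was 14 to 16 without any 1 library and 16 without replicate 3 of both ligands, where leaving libraries out can hardly remove a member. It fell to 12 under upper-quartile scaling and with GC and length trends removed. HK2 (-0.35), NDRG1 (-0.23), PGK1 (-0.10), ENO1 (-0.08) and VEGFA (0.00) were among the 9 members that overlapped DMSO.

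The hypoxia response element is bound by hypoxia-inducible factors and was searched as its core ACGTG on both strands. It stood in the promoters of 5 of the 12 shared genes of the list with an entry (41.7%). The share was 26.4% of tested genes with an entry and 21.6% of all genes with one. The letters CACGTG, the E-box, hold the core on both strands. The 5 genes are shown because they carry the letters, and they were picked from the list after the search and not for their values. The difference between these shares was not tested, and a match to so short a core is no evidence of binding. Capitals mark the matches in each stretch.
ANKRD37 (chr4:185396651-185396710, plus strand): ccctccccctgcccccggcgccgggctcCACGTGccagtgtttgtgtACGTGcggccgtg
EGLN1 (chr1:231422288-231422347, minus strand): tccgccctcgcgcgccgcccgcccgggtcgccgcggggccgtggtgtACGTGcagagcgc
BNIP3 (chr10:131982026-131982085, minus strand): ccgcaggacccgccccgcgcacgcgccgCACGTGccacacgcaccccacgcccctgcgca
P4HA1 (chr10:73096921-73096980, minus strand): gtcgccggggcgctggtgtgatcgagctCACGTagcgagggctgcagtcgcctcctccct
LDHA (chr11:18394350-18394409, plus strand): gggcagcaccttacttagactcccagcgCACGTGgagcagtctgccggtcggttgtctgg

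The glucose transporter SLC2A1 (chromosome 1, 42925375 to 42959173) had normalized counts of 4633, 4688 and 4689 with DMSO, 3661, 3809.8 and 3206 with HBC530 and 2811, 3062 and 2981 with MsOc3HBC. The 3 groups were fully separate, with MsOc3HBC lowest and HBC530 replicate 3 the lowest of its group. The log2 fold change was -0.52 (adjusted p = 0.0153, SE 0.0708). EGLN3, an oxygen-sensing prolyl hydroxylase, had 1023, 947 and 968, 833, 798 and 740.1 and 585, 594 and 722 (-0.46 (adjusted p = 0.123, SE 0.0863)). ADM, the vasodilating peptide adrenomedullin, had 735, 684 and 680.02, 457, 562 and 607 and 406, 429 and 462 (-0.53 (adjusted p = 0.123, SE 0.0982)). In neither gene did a ligand library reach the DMSO libraries, and neither passed for both ligands together, while EGLN3 passed for MsOc3HBC alone (-0.63 (adjusted p = 0.0421, SE 0.102)).

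KDM3A, a histone demethylase, had 2369.5, 2093 and 1927 normalized counts with DMSO, 1716, 1686 and 1466 with HBC530 and 1572, 1650.000 and 1539 with MsOc3HBC, with -0.40 (adjusted p = 0.178, SE 0.0833). PFKFB3, which makes the fructose bisphosphate that drives glycolysis, had 5088, 4904 and 4773, 3943, 4292 and 3351 and 3748, 3743 and 3278, with -0.39 (adjusted p = 0.178, SE 0.0836). Of the genes whose promoters are printed, ANKRD37 differed by -0.62, EGLN1 by -0.31, BNIP3 by -0.25, P4HA1 by -0.25 and LDHA, the lactate dehydrogenase subunit, by -0.22. ANKRD37 overlaps UFSP2, which had a mean raw count of 616 against 99.2. The remaining shared members were PFKFB4 (-0.49), SLC2A3 (-0.47), PDK1 (-0.38) and BNIP3L (-0.33), none past the test.

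In sterol and fatty acid synthesis a smaller share was shared. Of 21 measured genes 9 were shared and lower (42.9%, against 2.53% of all genes) and 0 shared and higher. The median was -0.24, and none passed. The other 12 overlapped DMSO in at least 1 library. HMGCS1, which makes the precursor of mevalonate, had 7056, 6122 and 6067 normalized counts with DMSO, 4709, 4989 and 4328 with HBC530 and 5339, 5659 and 5081 with MsOc3HBC, and a log2 fold change of -0.35 (adjusted p = 0.207, SE 0.0768). INSIG1, which holds SREBP in the endoplasmic reticulum, had 8497, 8179 and 8221, 6602, 6978 and 6668 and 6211, 6225 and 6860.5 (-0.33). SQLE (-0.32), FDFT1 (-0.24), DHCR7 (-0.23) and SC5D (-0.24) are enzymes of the path from squalene to cholesterol or lead into it. SCD (-0.26) desaturates fatty acids and STARD4 (-0.28) carries cholesterol. FASN (-0.22) overlapped DMSO. The count was 12 without replicate 3 of both ligands and 6 under upper-quartile scaling.

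Of 8 genes of the aryl hydrocarbon receptor pathway, CYP1A1, CYP1B1 and TIPARP were shared and lower (37.5%, against 2.53% of all genes). The list median was -0.13. The count was 3 again without replicate 3 of both ligands, but the median was -0.04, and it was -0.08 without HBC530 replicate 3 alone. CYP1A1, the P450 enzyme most used as a readout of the receptor, had 34.9, 30.5 and 40.5 normalized counts with DMSO, 22.2, 19.6 and 15.4 with HBC530 and 10.5, 7.68 and 17.4 with MsOc3HBC. These counts are low, and the log2 fold change of -1.26 (adjusted p = 0.1096, SE 0.229) did not pass. CYP1B1 had 259, 231 and 188, 132, 127 and 71.5 and 108, 150.2 and 80.2 (-0.97 (adjusted p = 0.175, SE 0.199)), and overlaps RMDN2, with a mean raw count of 88.8. TIPARP, an ADP-ribosyltransferase that represses the receptor, had 989.7, 864 and 827, 540.2, 541 and 360.2 and 509.6, 606 and 476 (-0.81 (adjusted p = 0.0505, SE 0.127)). In all 3 genes replicate 3 of HBC530 was the lowest of its group. AHR itself (0.17), ARNT (-0.15) and AHRR (-0.11) overlapped DMSO.

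On a list of 6 genes of MondoA glucose sensing, 3 were shared and lower (50%, against 2.53% of all genes) and the median was -0.29. Without replicate 3 of both ligands these were 3 and -0.20. The list was chosen with results of these samples known and holds the called genes TXNIP and PPP1R3G. Its share and median are therefore no independent evidence. TXNIP, an inhibitor of thioredoxin and of glucose uptake, had 543, 559 and 546 normalized counts with DMSO, 376, 383 and 313 with HBC530 and 361, 353 and 352 with MsOc3HBC, and a log2 fold change of -0.62 (adjusted p = 0.0153, SE 0.0831). PPP1R3G, a glycogen-targeting subunit of protein phosphatase 1, had 98.6, 102 and 109, 48.1, 51.4 and 54.7 and 36.7, 29.9 and 34.9, with -1.31 (adjusted p = 0.000973, SE 0.126). Its 3 groups were fully separate, MsOc3HBC lowest. ARRDC4, an arrestin that removes glucose transporters from the membrane, had 813, 733 and 669, 562, 590.3 and 426 and 506, 538 and 485 and did not pass (-0.50 (adjusted p = 0.178, SE 0.106)). ARRDC3 (-0.01), MLX (0.04) and MLXIP (-0.07), which encodes MondoA, were not shared.

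Of 15 circadian clock genes 2 were shared and lower (13.3%, against 2.53% of all genes), the paired repressors BHLHE40 and BHLHE41. Both are also responsive to hypoxia, and the list median was -0.06. Without replicate 3 of both ligands 1 was higher and 2 were lower and the median was -0.01, and it was -0.03 without HBC530 replicate 3 and -0.04 without DMSO replicate 3. BHLHE40 (chromosome 3, 4979116 to 4985323) had 2943, 2658 and 2616 normalized counts with DMSO, 1453, 1781 and 1559 with HBC530 and 1408, 1211 and 1244 with MsOc3HBC. Its groups were fully separate, with a log2 fold change of -0.93 (adjusted p = 0.000736, SE 0.0845). BHLHE41 had 248, 250.1 and 238, 149, 171 and 82.7 and 124, 119 and 101 (-0.96 (adjusted p = 0.0861, SE 0.165)), with HBC530 replicate 3 the lowest of all, and overlaps SSPN (mean raw count 92.3 against 181). The clock genes PER1 (-0.11), PER2 (-0.18), NR1D1 (-0.06) and BMAL1 (-0.01) overlapped DMSO.

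Of the 838 shared genes 771 were on none of the 20 lists. SPRY1, a feedback inhibitor of receptor tyrosine kinases, had 922, 881 and 865 normalized counts with DMSO, 586, 613 and 548 with HBC530 and 454, 455 and 420.4 with MsOc3HBC, 3 fully separate groups with a log2 fold change of -0.80 (adjusted p = 0.000736, SE 0.0733). CA8, a carbonic anhydrase relative without enzyme activity, had 1513, 1485 and 1436, 1031, 992 and 890.04 and 897, 1004 and 989 (-0.60 (adjusted p = 0.00983, SE 0.0748)). NOG, which encodes the BMP antagonist noggin, had 415, 435 and 420.3, 283, 274 and 292 and 255, 272 and 248 (-0.64 (adjusted p = 0.00995, SE 0.0803)). CXCR4, a chemokine receptor, had 186, 205 and 185, 129, 144 and 143 and 106, 93.04 and 103 (-0.70 (adjusted p = 0.0253, SE 0.101)). In CA8 the ligand groups overlapped each other, and in NOG and CXCR4 the MsOc3HBC libraries lay below those of HBC530. SHISA2, which retains receptors of the FGF and Wnt pathways in the endoplasmic reticulum, had 787, 702 and 709, 484, 513 and 303 and 423, 439 and 394 and did not pass (-0.77 (adjusted p = 0.0861, SE 0.132)).

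On the lists for damage by reactive compounds and on 2 further lists, the share of shared genes was near that of all genes (4.85%), which is no result about these genes. In the NRF2 electrophile response SLC7A11 was the 1 shared gene of 17 (5.88%), and the median was -0.00019. NQO1 (-0.03), HMOX1 (0.00), GCLM (0.01) and TXNRD1 (-0.08), the usual targets, overlapped DMSO. Of 18 p53 and DNA damage genes GADD45A alone was shared and higher (5.56%), with a log2 fold change of 0.38 (adjusted p = 0.371, SE 0.0992) and a list median of -0.02. CDKN1A (0.16) and MDM2 (-0.07) overlapped DMSO. Of 14 heat shock genes HSP90AB1 was shared and lower (-0.10, 7.14%) and of 13 tubulins TUBB2B higher (0.15, 7.69%). Without replicate 3 of both ligands the NRF2 list had 1 higher and 2 lower, the p53 list 2 higher, the heat shock list 2 lower and the tubulins 1 higher, where 8.81% of all genes were shared. No metallothionein or zinc gene (0 of 6) and no gene of the mitochondrial genome (0 of 13) was shared. The sign of the medians of the NRF2, p53 and tubulin lists changed between the processing alternatives, so no direction is given for them.

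The ligands were compared as 1 pair at the same dose and time, and the rule did not use this comparison, although it favours genes with a small spread among the ligand libraries. By the quasi-likelihood test of edgeR, adjusted after Benjamini and Hochberg, 4 of 17270 genes differed (0.0232%), and CHAC1 and JDP2 were the shared genes among them. CHAC1 was higher with MsOc3HBC than with HBC530 by 1.17 (95% confidence interval 0.94 to 1.39, adjusted p = 0.00283) on the log2 scale, and JDP2 by 0.96 (95% confidence interval 0.69 to 1.24, adjusted p = 0.0283). SLC7A11 (1.03 (95% confidence interval 0.70 to 1.36, adjusted p = 0.0605)) and SESN2 (0.66 (95% confidence interval 0.45 to 0.86, adjusted p = 0.0605)) had no overlap between the ligands but were not called in this fit. They were called with the replicate number as a block over all 9 libraries, where 9 genes were called. That block also covers the DMSO libraries, for which no pairing with a ligand was shown. Deviations of ligand libraries with the same replicate number correlated at 0.202, 0.425 and 0.485, which does not settle whether these numbers pair the libraries. When the 6 ligand libraries were fitted alone with edgeR, 0 genes were called without the block, where 1274 had an unadjusted p under 0.05, and 1898 (11%) with it, 30 of the 401 higher shared genes (7.48%) and 21 of the 437 lower (4.81%). RHOB was lower with MsOc3HBC, by -0.45 (95% confidence interval -0.63 to -0.27, adjusted p = 0.363), and the blocked fit of the 6 libraries gave -0.45 (adjusted p = 0.000332). That fit also called SPRY1 (-0.39 (adjusted p = 0.00816)), KLF2 (-0.59 (adjusted p = 0.00591)), ULBP1 (1.09 (adjusted p = 0.00347)) and SLC2A1 (-0.27 (adjusted p = 0.0138)).

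Other shared genes had a ligand difference near 0. The difference of MsOc3HBC from HBC530 was 0.09 (95% confidence interval -0.09 to 0.26, adjusted p = 0.775) for ATF3. It was -0.01 (95% confidence interval -0.23 to 0.21, adjusted p = 0.985) for TXNIP, -0.01 (95% confidence interval -0.21 to 0.18, adjusted p = 0.981) for CA8 and -0.03 (95% confidence interval -0.23 to 0.18, adjusted p = 0.958) for KLF6. For these 4 genes the intervals exclude a difference of 0.5 on the log2 scale in either direction. The interval lay within -0.5 to 0.5 for 269 of the 401 higher genes (67.1%) and 337 of the 437 lower genes (77.1%), against 57.4% of all genes. It lay within -1 to 1 for 382 and 420 (95.3 and 96.1%, against 89.4%). An unadjusted p under 0.05 between the ligands was found for 34 and 24 (8.48 and 5.49%, against 8.9%). MsOc3HBC lay above HBC530 in 251 of the higher genes (62.6%) and below it in 297 of the lower genes, where it lay above in 53.5% of all genes, with a median difference of 0.04 and -0.04. The plot of the shared change against the difference shows these genes around the horizontal line.

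**Figure D2:**
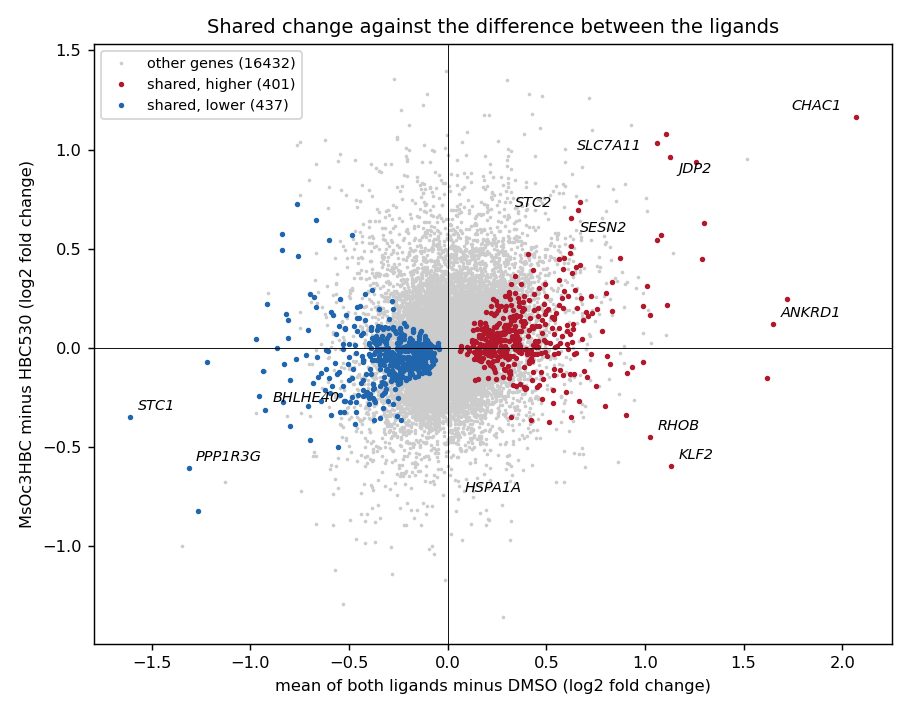
Mean of both ligands minus DMSO (x axis) against MsOc3HBC minus HBC530 (y axis), as log2 fold changes, one point for each of 17270 genes. The 401 higher and 437 lower shared genes lie to the right and left because the rule chose them, and most lie near 0 on the y axis. CHAC1, JDP2 and SLC7A11 lie at 1.17, 0.96 and 1.03 on it, and RHOB and KLF2 at -0.45 and -0.59.

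Taken one by one against DMSO, HBC530 changed 5 genes at an adjusted p under 0.05 (0.029% of 17270) and all 5 were shared, CHAC1, RHOB, ATF3, BHLHE40 and KLF2. MsOc3HBC changed 27 (0.156%), 22 of them shared. These held all 14 genes called for both ligands together and 8 more, among them ULBP1, CEBPG, HERPUD1, EGLN3 and ASNSP1. Both comparisons use the same DMSO libraries, so each gene is given by its own values above. The median log2 fold change of the higher genes was 0.31 with HBC530 and 0.36 with MsOc3HBC, and that of the lower genes -0.23 and -0.28.

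Length, base composition and gene type were set side by side for the higher and the lower genes. The 401 higher genes had a median exonic length of 3415 bases, a median GC content of 49.7% and a median mean raw count of 305. The 437 lower genes had 4830 bases, 47.6% and 1066, and all tested genes 4226 bases, 48.9% and 647. Long noncoding RNAs made up 20.2% of the higher genes (81) and 8.01% of the lower genes (35), against 12.7% of all, and protein-coding genes 71.3, 88.3 and 78.3%. These are descriptions with no test, since length, GC content and depth can move with a library and their part in the result was not tested. Removing the trends of GC content and length gave 1250 shared genes, 600 of the 838 among them. The share of tested genes that were shared ran from 3.44% on chromosome 14 to 7.55% on chromosome 8, and was 0 of 33 in the mitochondrial genome, which held 1.90 to 3.50% of the counts in all libraries.

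Several shared genes outside the lists had large folds on few counts. ANKRD1, a YAP target that encodes a muscle ankyrin protein, had 4.11, 3.91 and 6.005 normalized counts with DMSO, 9.79, 16.3 and 18.2 with HBC530 and 17.8, 12.8 and 17.4 with MsOc3HBC (1.65 (adjusted p = 0.163, SE 0.331)). STC1, the secreted stanniocalcin 1, had 23.6, 22.7 and 20.3, 4.45, 13.04 and 5.61 and 8.39, 5.12 and 5.23 (-1.61 (adjusted p = 0.123, SE 0.304)). ASNSP1, a pseudogene of ASNS that can share its reads, had 31.8, 32.8 and 30.02, 43.6, 47.3 and 77.1 and 102, 79.4 and 139.5 (1.26 (adjusted p = 0.123, SE 0.238)). MIR210HG, the host transcript of a hypoxia-induced microRNA, had 68.8, 101 and 104, 57.8, 56.3 and 54.7 and 55.6, 48.7 and 31.4 (-0.83 (adjusted p = 0.178, SE 0.177)). These 4 genes were picked after their values were seen, and none passed for both ligands together. ASNSP1 passed for MsOc3HBC alone (1.73 (adjusted p = 0.02604, SE 0.262)).

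With TMM, upper-quartile or total-count scaling the number of shared genes was 865, 851 and 844, with 784, 687 and 679 of the 838 among them, and 563 genes (293 higher and 270 lower) were shared under all 4 scalings. Of those shared in all 9 libraries, 47.9% were higher, against 43.7% with TMM and 54.3% with total counts. Leaving a library out can only add genes to the rule apart from shifts in scaling and in the filter, and it gave 991 to 1760 shared genes, 819 to 833 of the 838 among them. Without replicate 3 of both ligands there were 1544, 813 of them among the 838.

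**Figure D3:**
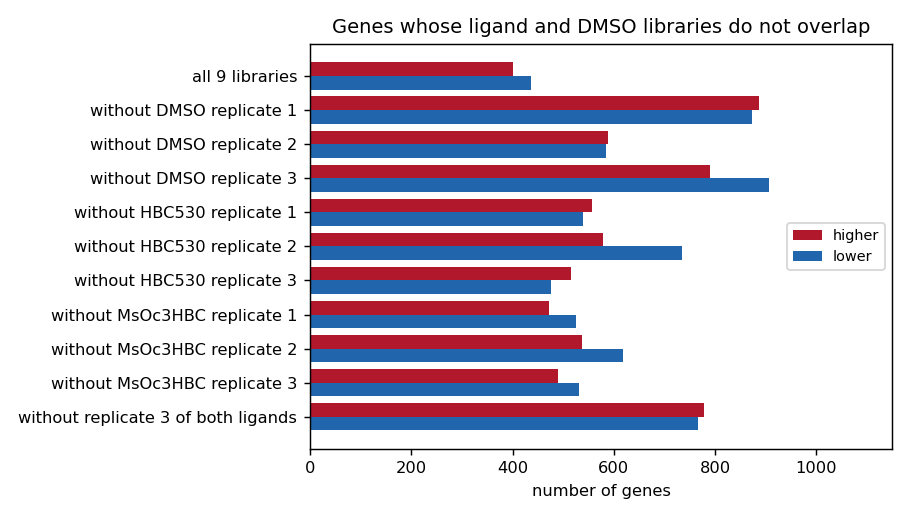
Number of shared genes that were higher (red) and lower (blue) with both ligands, on an x axis that starts at 0, for all 9 libraries and without each library or without replicate 3 of both ligands. The number rose from 401 higher and 437 lower to 887 and 873 without DMSO replicate 1 and to 790 and 907 without DMSO replicate 3, and to 516 and 475 without HBC530 replicate 3.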

How the data were processed

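Per the labels and the study's methods, the authors trimmed the reads with Trimmomatic 0.36, mapped them to GRCh38 with STAR 2.5.2b and counted unique hits on genes with featureCounts of Subread 1.5.2. The deposited files hold raw counts of 57500 genes in each of 9 libraries, of which 56410 matched a current symbol. The annotation release and the strand setting are not given in the sources used here, so a gene that overlaps another can hold part of its counts. The authors' 2 tables of differential expression (DESeq2 fold changes, p-values and normalized counts) were not used.

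Members were found with DESeq2 1.42.0 size factors of the 9 libraries. Tests were run on the counts of the 17270 genes with a mean over 10 in R 4.3.3 with edgeR 4.0.16 (TMM factors, quasi-likelihood F test, all 9 libraries in 1 fit, Benjamini-Hochberg adjustment over all genes, threshold 0.05, 95% intervals), checked on simulated data with known changes. The mean of both ligands was contrasted with DMSO, and MsOc3HBC with HBC530. The members, the gene lists and the tests were chosen with earlier results of these data known. Genes were named by rule, as the 10 higher and 10 lower with the smallest p, the 5 of each with the largest fold at a mean over 100, and at most 5 shared members of each list, with others said to be picked later. Replicates are biological, and they differed by more than sampling noise (chi-square per gene 5.77 to 65.9 where sampling alone gives about 1). Replicate numbers come from the labels. Deviations of libraries with the same number correlated at 0.202, 0.425 and 0.485 between the ligands and at -0.119 to 0.205 between DMSO and a ligand. These values do not settle whether the numbers pair the libraries. Alternatives were DESeq2, limma-voom (limma 3.58.1), other scalings and filters, the replicate block, removal of GC and length trends and each library left out. Promoters came from RefSeq. They were given for 590 of the 838 shared genes, under 80%, so motif shares over all of them are void and none are reported. Of the 17270 tested genes 11846 had an entry, so the shares over tested genes are likewise of a part. Some genes and 2 of the 20 lists are not reported here.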

Additional observations from a re-analysis of the deposited data

Results flagged for a closer look

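In 1 of 52 named genes the highest of the 6 ligand libraries stood far from the rest. XBP1 had 9154 normalized counts in replicate 3 of MsOc3HBC, and the gap to the next library was 0.867 of the range of these 6. The limit for a closer look was 0.625 of the range, and chance alone takes about 1 of 20 groups past that limit.

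Between the ligands, 4 genes differed by the quasi-likelihood test of edgeR, adjusted after Benjamini and Hochberg. On the log2 scale the difference of MsOc3HBC from HBC530 was 1.17 for CHAC1 and 0.96 for JDP2, both shared genes. It was 0.67 for STC2, which had 3905, 3577 and 3498 normalized counts with DMSO, 3524, 3819 and 3356 with HBC530 and 5708, 5913 and 5421 with MsOc3HBC. It was -0.76 for HSPA1A, an inducible chaperone whose near-identical copy HSPA1B can share its reads, with 1022, 872 and 921, 1192, 1276 and 1306 and 724, 791 and 708. STC2 and HSPA1A were not shared genes.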

How the results depend on the processing

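For both ligands against DMSO, HBC530 against DMSO, MsOc3HBC against DMSO and MsOc3HBC against HBC530, the numbers of genes called (14, 5, 27 and 4) became 100, 27, 188 and 55 with DESeq2 and 136, 38, 213 and 28 with no filter on low counts. With the replicate block they were 55, 18, 101 and 9, with GC and length trends removed 23, 9, 61 and 6, and with both 172, 30, 304 and 10. Without replicate 3 of both ligands they were 69, 18, 195 and 17, and the shared genes 1544. HBC530 against DMSO had 8 calls with limma-voom, upper-quartile factors or at least 10 counts in every library. The fits of the 6 ligand libraries, chosen after seeing the data, gave 0 calls and, with the replicate block, 1898. Fits that left out 1 library gave 7 to 23, 2 to 10, 9 to 72 and 1 to 5 calls, and 991 to 1760 shared genes. The cause was not tested, apart from the smaller number of libraries or genes. Calls of the 14 genes held in all 21 alternatives for CHAC1, RHOB, ATF3, BHLHE40, SPRY1 and PPP1R3G and in 20 for JDP2, and in 13 to 18 for the others. Of the 52 named genes no value changed direction, with 933 values on the same side of the threshold, 120 newly past it and 38 no longer past it. With 3 libraries a group, the median SE of a ligand difference was 0.132 in the higher and 0.108 in the lower genes, which limits what small differences could show.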
